A study of Mus musculus with 2 samples.

Results

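The miRNA genes from Mir379 to Mir3072 form the distal miRNA cluster of the imprinted Dlk1-Dio3 region on mouse chromosome 12. The members were chosen by position alone: every gene of type miRNA in GENCODE M21 on the plus strand that lies between the start of Mir379 and the end of Mir3072 (chr12:109709060-109747960, build mm10). This rule gave 39 of the 2202 annotated miRNA genes. Their levels were measured by microRNA sequencing of the gastrocnemius, the large calf muscle, in 2 female mice of the strain B6CASTF1/J aged 10 days, a hybrid of a C57BL/6 and a CAST parent. The labels give a size range under 30 bases and name no treatment or engineered allele. The 2 samples are numbered as biological replicates and described as different females but carry the same donor entry, so the spread between them may be in part technical. There is 1 group, and so no contrast between conditions.

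MicroRNAs are cut from hairpin precursors and, loaded on an Argonaute protein, pair with target mRNAs mainly through the seed, bases 2 to 8 of the mature strand. At Dlk1-Dio3 the protein-coding genes are expressed from the paternal chromosome and the non-coding RNAs from the maternal one. The distal miRNAs are thought to be processed from one long maternal transcript, whose annotated 3' portion is the lincRNA gene Mirg. The cluster is best known from brain, where miR-134 acts in dendrites and the miR-376 miRNAs are edited, and from embryonic and newborn tissues. In muscle the region is known from the callipyge sheep, whose mutation alters its imprinted genes. The counts used here do not separate the parental chromosomes, and each gene count sums both arms of its hairpin.

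The sequences of the leading members are shown first because Mir411 and Mir379, which head the cluster in position and in level, have related arms. RefSeq (GRCm38.p6, the assembly of mm10) listed 71 mature arms for 38 of the 39 members. Capitals mark the seed.
miR-411-5p: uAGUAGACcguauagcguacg
miR-411-3p: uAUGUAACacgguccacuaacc
miR-379-5p: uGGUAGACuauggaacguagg
miR-379-3p: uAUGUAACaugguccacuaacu
miR-1193-5p: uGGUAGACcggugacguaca
miR-487b-5p: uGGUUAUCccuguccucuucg
miR-541-5p: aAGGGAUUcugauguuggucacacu
miR-382-5p: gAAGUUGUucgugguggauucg
The 3p arms of Mir379 and Mir411 share their seed and differ at 2 of 22 bases, U10C and U22C, counted from the 5' end with the base of miR-379-3p first. The 5p arm of Mir379 shares its seed with that of Mir1193.

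The next arms are shown because they belong to hairpins that resemble one another. The miR-376c and miR-376b 5p arms share a seed, and miR-376b-3p with miR-376a-3p, miR-300-3p with miR-381-3p and miR-543-3p with miR-495-3p differ at few bases. miR-329-3p and miR-494-3p are shown for the hairpin group they form with Mir543.
miR-376c-5p: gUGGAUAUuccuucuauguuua
miR-376b-5p: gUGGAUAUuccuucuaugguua
miR-376b-3p: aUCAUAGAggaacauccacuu
miR-376a-3p: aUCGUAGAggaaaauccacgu
miR-300-3p: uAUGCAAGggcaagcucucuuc
miR-381-3p: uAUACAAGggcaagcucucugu
miR-329-3p: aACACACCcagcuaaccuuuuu
miR-494-3p: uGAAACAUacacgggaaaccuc
miR-543-3p: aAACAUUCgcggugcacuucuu
miR-495-3p: aAACAAACauggugcacuucuu
Positions again count from the 5' end, with the arm named first giving the first base. miR-376c-5p and miR-376b-5p differ at 1 base, U19G. miR-376b-3p and miR-376a-3p differ at 3 bases, A4G, C13A and U20G, and miR-300-3p and miR-381-3p at 3 bases, G4A, U21G and C22U. miR-543-3p and miR-495-3p differ at 4 bases, U6A, U7A, G9A and C10U. In each of these last 3 cases at least 1 difference falls in the seed.

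The libraries held 8152102 and 10176117 reads in replicates 1 and 2, of which 3510897 and 3949733 lay on the sense strand of a miRNA gene. Levels are given as counts per 1000000 of these sense reads (CPM). Reads that aligned to several places made up 42.6% and 46.4% of the files and were counted on no gene. Of 9 striated muscle markers all had reads, led by Mir206, a miRNA of skeletal muscle (105606 ± 14626 CPM). It stood at 115948 and 95264 CPM in replicates 1 and 2, and the other 8, all higher in replicate 2, summed to 709.5 and 832.0 CPM. Among these 8, Mir1a and Mir133a are each listed as 2 genes, and reads that match both copies were counted on neither. Their counts may therefore fall short of their levels. Markers of other cell types were also present: Mir126a of endothelium stood at 42036 and 46314 CPM, and the smooth muscle and stroma list at 23481 and 29892 CPM. Mir122 of liver was lower in replicate 2 (491.0 and 175.7 CPM). So were the sums of the 2 erythroid markers (2066 and 1865 CPM) and of the 3 leukocyte markers (614.9 and 568.4 CPM). Of the leukocyte markers, Mir142 (150.4 and 108.9 CPM) and Mir150 (284.0 and 273.7 CPM) were lower. Mir155 was higher in replicate 2 (180.6 and 185.8 CPM). Of 7 neural markers, 3 had reads, nearly all on Mir338, while Mir9-2 and all 3 Mir124a genes were at 0. Mir9 and Mir124a are each listed as 3 genes, and reads that match several copies were counted on no gene. Their low counts therefore do not show absence. The neural list summed to 243.2 and 369.1 CPM. The part of these cell types in the levels of the cluster was not tested.

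The cluster took a large share of the counted reads. Its members held 568926 of the sense reads in replicate 1, or 16.2% (Wilson 95% interval 16.17% to 16.24%), and 610319 in replicate 2, or 15.5% (15.42% to 15.49%). The mean was 15.8% ± 0.532 (SD, n = 2 libraries). The intervals of the libraries, which cover counting error only, did not overlap. In bulk muscle, fewer cells that express the cluster, less of its RNA per cell and a technical difference between libraries cannot be told apart. Of the 39 members, 36 reached 2 CPM in both libraries (92.3%), beside 332 of all 2202 annotated genes (15.1%). In both libraries 17 members held at least 0.1% of the reads, and 20 members stood among the 100 miRNA genes with the highest counted levels. Detection and rank rest on uniquely aligned reads, so genes with close copies elsewhere may be undercounted. An 18-base window is shared with another precursor by 51.5% of all genes, beside 5 of the 39 members. The 20 miRNA genes within 200 kb upstream of Mir379 on the same strand, which hold the Mir127 and Mir431 side of the region, summed to 14.1% ± 0.399 with 15 detected. Median levels over all genes of each stretch were 937.5 CPM for the 39 members and 1003 CPM for the 20 upstream genes. This difference was not tested, since neighbours at 1 locus are not replicates.

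Levels within the cluster were very unequal. Mir411 (ENSMUSG00000065477.3, chr12:109710175-109710256) had 60037 and 62145 CPM in replicates 1 and 2, a mean of 61091 ± 1491. It held 38.6% ± 2.24 of all reads of the cluster. Mir379 (ENSMUSG00000065498.4, chr12:109709060-109709125) had 29031 and 26722 CPM. These neighbours, 1049 bases apart, together held 56.2% ± 1.80 of the reads of the cluster. Mir411 exceeded Mir379 by 2.19-fold and Mir379 exceeded the next member by 2.24-fold, and in neither case did the libraries overlap.

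Mir487b (chr12:109727333-109727414, 12907 and 12019 CPM) and Mir541 (chr12:109742409-109742498, 12681 and 11053 CPM) came next. Mir487b was the higher in both libraries, by 1.05-fold on the means, although the ranges of the 2 genes overlapped across libraries. Mir382 followed with 8874 and 7398 CPM. Mir299a had 6478 and 5555 CPM. The first 5 members held 76.7% ± 0.706 of the reads of the cluster, the first 10 held 88.9% ± 0.479 and the first 20 held 97.0% ± 0.241.

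The ranks from the seventh to the tenth were taken by Mir376c, Mir409, Mir381 and Mir369. Mir376c had 3885 and 4481 CPM, and Mir409 had 4100 and 3107 CPM, so that the higher of this pair depended on the library. Mir381 had 2959 and 2841 CPM. Mir369 had 2481 and 2496 CPM, the closest match between the libraries among the 10 highest members. Over the 36 neighbours in rank with reads, the ranges overlapped for 20, most of them between Mir300 in the thirteenth place and Mir376b. The order was the same in both libraries for 23 of the 36, and for 7 of the 20 that overlapped.

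**Figure D1:**
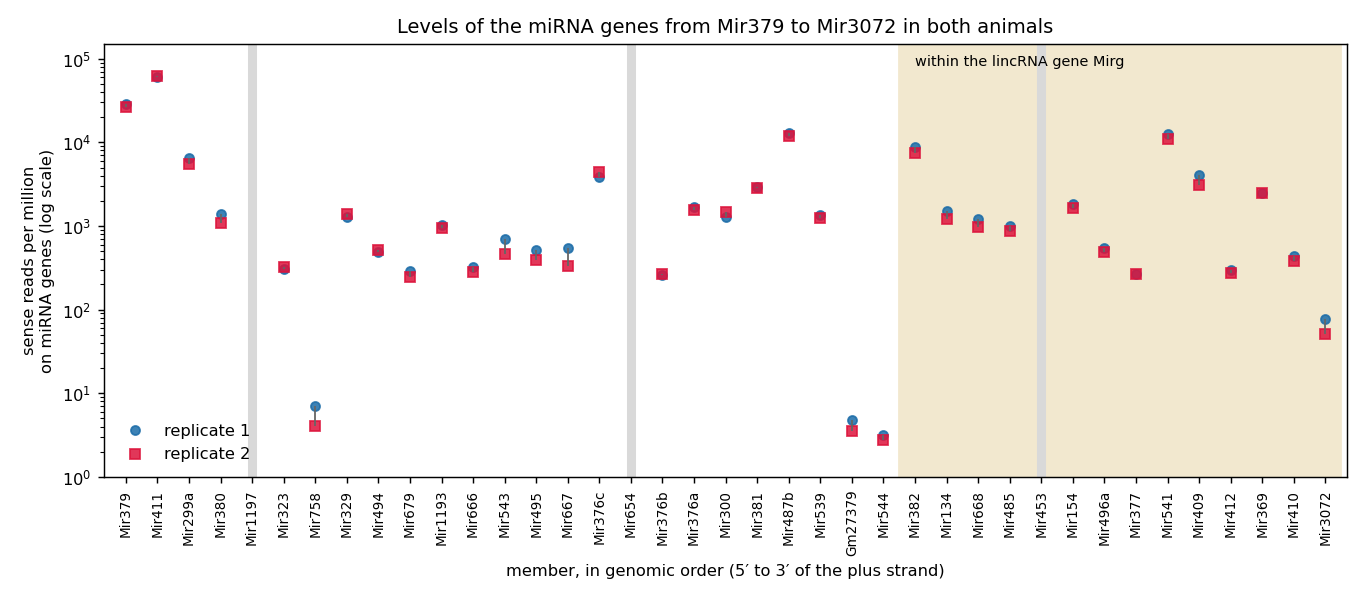
CPM of each member (log scale) in genomic order, with a circle for replicate 1 and a square for replicate 2, a line joining them, grey bars for the 3 members below 2 CPM in either library and shading over the members inside Mirg. Mir411 and Mir379 stand highest at the 5' end, and Mir487b, Mir382 and Mir541 form separate peaks. Mir758, and the adjacent Gm27379 and Mir544 as a pair, lie below 10 CPM between more abundant neighbours.

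A few members had almost no reads. Mir1197 had 0 and 4 reads, and Mir654 and Mir453 had 0 reads in either library. At these depths a count of 0 leaves room for a level of 0.854 CPM in the shallower library and 0.760 CPM in the deeper one, for uniquely aligned reads and counting error only. Mir544 had 11 reads in each library (3.13 and 2.78 CPM), Gm27379 had 17 and 14, and Mir758 had 25 and 16. Among the detected members the highest exceeded the lowest by 20645-fold. Mir3072, the last member, had 271 and 204 reads (77.2 and 51.6 CPM).

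The order of the genes along the chromosome and their levels had a weak rank correlation. Over the 36 detected members, Spearman's rho of distance from Mir379 and mean CPM was -0.10, a description over neighbouring genes of the same libraries. Detected neighbours differed in level by a median of 1.94 on the log2 scale, beside 2.37 over all 630 pairs of detected members. The members span 38.9 kb with a median of 556 bases between neighbours. The widest gap, 4368 bases, lies between Mir544 and Mir382, and splits the members as the annotated start of Mirg does.

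The 25 members before this gap, Mir379 to Mir544, held 79.3% ± 1.56 of the reads of the cluster with 23 of them detected. Their levels ran from 0 to 61091 CPM around a median of 581.6 CPM. The 14 members from Mir382 on lie inside Mirg and held 20.7% ± 1.56. Of these 14, 9 overlap an annotated Mirg exon, and the others lie in its introns. Mir382, Mir134, Mir668 and Mir485 overlap an exon, and Mir541, Mir409, Mir154 and Mir496a do not.

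Mirg members also differed among themselves. The 5 genes from Mir382 to Mir453 held 7.27% ± 0.701 of the reads of the cluster, with Mir382 far ahead. Mir134, the dendritic miRNA, had 1495.3 and 1223.6 CPM, Mir668 had 1203 and 969.7 CPM and Mir485 had 1004 and 870.7 CPM. The 8 genes from Mir154 to Mir410 held 13.4% ± 0.851 and were all detected, between 269.4 CPM for Mir377 and 11867 CPM for Mir541. Within this stretch Mir412 and Mir369 are 49 bases apart, and their means were 284.3 ± 16.8 and 2488 ± 10.6 CPM.

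**Figure D2:**
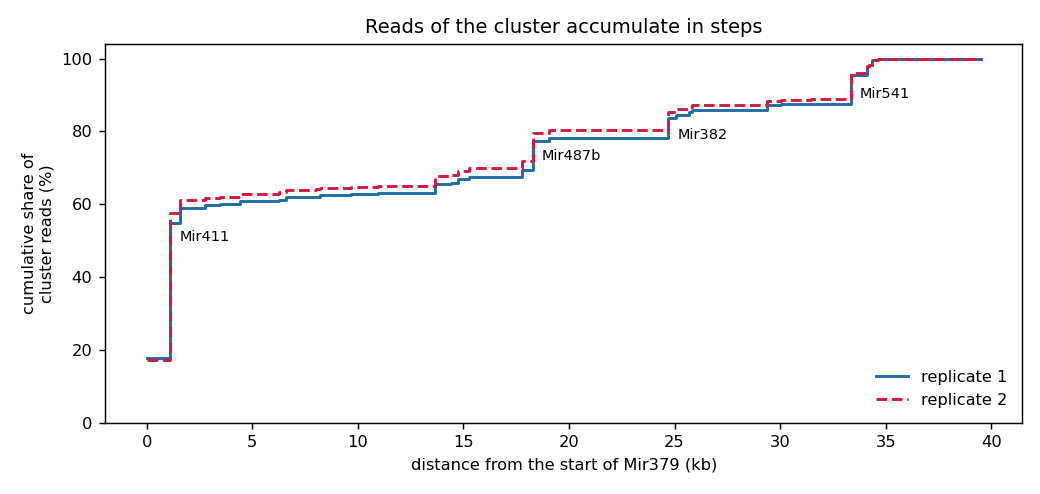
Cumulative share of the reads of the cluster (%) against distance from the start of Mir379 (kb), as a solid line for replicate 1 and a dashed line for replicate 2. Both lines rise most at Mir379 and Mir411, which hold 56.2% together, and again in steps at Mir487b, Mir382 and Mir541.

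The 3 genes named Mir376 differed in level. Mir376c had 3885 and 4481 CPM, Mir376a had 1704 and 1532 CPM, and Mir376b had 259.8 and 266.9 CPM. Mir376c was 15.9-fold above Mir376b although their precursors were the most similar of all 741 pairs of members, with 80.7% identity over aligned columns. Their libraries did not overlap, nor did those of Mir376a with either. A shared run of 31 bases, capitals throughout, covers most of both 5p arms: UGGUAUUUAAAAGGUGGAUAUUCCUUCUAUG. A read that lies wholly inside it matches both genes and was set aside, so the levels of Mir376c and Mir376b are uncertain in a way that Mir376a, with no shared window of 18 bases, is not.

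Mir300 lies next to this group and had 1297 and 1471 CPM. Its precursor was 48.2% to 59.1% identical to those of the Mir376 group and 73.8% identical to that of Mir381, the third highest of all pairs. The median over pairs of detected members was 50%. Mir300 and Mir381, whose 3p arms differ at 3 bases, share a run of 16 bases, and Mir381 was 2.10-fold higher. The 3 Mir376 genes and Mir300 together stood at 7449 ± 428 CPM, 4.71% ± 0.429 of the reads of the cluster.

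Mir487b and Mir381, 436 bases apart, stood at 12463 ± 628 and 2900 ± 83.2 CPM, a 4.297-fold difference with no overlap. Together they held 9.70% ± 0.123 of the reads of the cluster. Their precursors were 60.5% identical. Mir487b was closer to Mir494, at 71.8%, and shared a run of 20 bases with the far less abundant Mir376b.

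In the group of Mir329, Mir494 and Mir543, levels lay within 2.67-fold. Mir329 had 1275 and 1410 CPM. Mir494 had 487.6 and 518.3 CPM and Mir543 had 697.8 and 465.3 CPM, so that these overlapped. The group stood at 2427 ± 47.2 CPM, 1.53% ± 0.0217 of the reads of the cluster. Identity ran from 53.1% for Mir329 with Mir543 to 68.2% for Mir494 with Mir543. Mir495, whose 3p arm shares its last 12 bases with that of Mir543, had 513.3 and 393.4 CPM and was below Mir543 in both libraries.

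Seeds were shared by few members. The 71 arms carried 65 different seeds, and 6 seeds occurred in arms of more than 1 member, involving 11 members. Beside those of Mir379 with Mir411, Mir379 with Mir1193 and Mir376c with Mir376b, the seeds were GGUUGAC of miR-758-5p and miR-1197-5p, GGUUGUC of miR-494-5p and miR-410-5p, and GGUUGCC of miR-453 and miR-496a-5p. The members joined by a seed differed in level. Mir379 was at 27877 CPM and Mir1193 at 986.5 ± 61.8 CPM, while Mir494 (502.9 ± 21.7 CPM) and Mir410 (406.5 ± 38.2 CPM) were close. Mir496a had 544.6 and 482.8 CPM and its seed partner Mir453 none. Because a count sums both arms, none of these values is the level of the shared seed.

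A few seeds also occur in miRNAs that are not members. This held for 11 of the 71 arms. Among them is miR-299a-3p, whose seed is also that of miR-299b-3p, from the gene opposite Mir299a. The seed of miR-329-3p, ACACACC, is also that of miR-362-3p, and the seed of miR-410-3p, AUAUAAC, is found in miR-344d-3p and miR-344e-3p. The seed of miR-1193-3p, AGGUCAC, is found in miR-370-5p, from a gene upstream in the same region. The seed of miR-411-5p, AGUAGAC, recurs in miR-7229-5p.

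**Figure D3:**
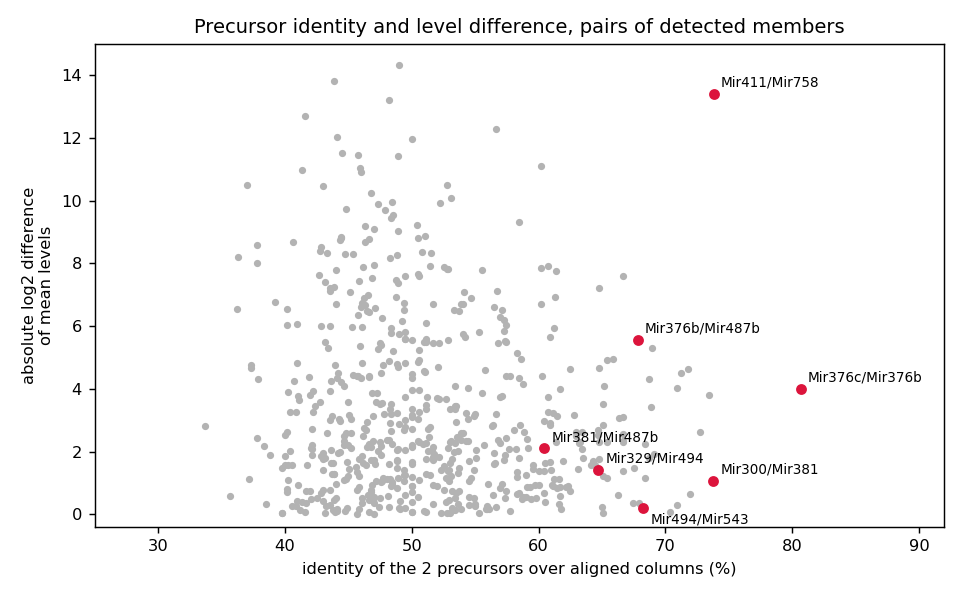
Each point is 1 of 630 pairs of detected members, with the identity of their precursors over aligned columns (%) on the horizontal axis and the absolute log2 difference of their mean CPM on the vertical axis; named pairs are red. Pairs of at least 65% identity had a median difference of 2.32 and the 11 pairs of at least 70% one of 3.81, beside 2.37 over all pairs. Mir411 with Mir758 differed by 13.4.

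Similar hairpins differed in level about as much as all pairs at a limit of 65% identity, and more at 70%. The 41 pairs with at least 65% identity differed by a median of 2.32 on the log2 scale and all 630 pairs by 2.37, and the 11 pairs with at least 70% by 3.81, given as a description since pairs share genes. The widest contrast among similar hairpins was that of Mir411 and Mir758. Their precursors, 73.8% identical, share 21 bases that cover the end of both 3p arms, GGUCCACUAACCCUCAGUAUC, and their means were 61091 ± 1491 and 5.59 ± 2.17 CPM. Reads inside this run would be set aside for both genes, and what they amount to was not tested. In all, 5 of the 39 members share a window of 18 bases with some annotated precursor that they do not overlap, and 2 share one of 22 bases, Mir376c and Mir376b. Over all annotated miRNA genes these shares were 51.5% and 46.9%. With precursors that overlap on opposite strands included, Mir299a makes 6 members with an 18-base window, beside 51.9% of all genes.

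Some precursors carry the same short stretches, which the rule for members did not use. The motif UACUUG, found near the 5' end of Mir411 and Mir487b, occurs in 10 of the 39 members (25.6%), in 41 of the 2163 other annotated precursors (1.90%) and in 0 of the 20 upstream genes. The motif AGUAUC, found near their 3' end, occurs in 7 members (17.9%) and in 1.57% of the others. The motif AGGUU was also searched and occurs in 10 members (25.6%), in 6.52% of the others and in 1 upstream gene, and on the opposite strand in 2 members and 4.81% of the others. UACUUG and AGUAUC occur together in Mir411, Mir494, Mir487b and Mir369, and in 1 of the other 2163 precursors. On the opposite strand UACUUG was found in 0 members and 0.925% of others, and AGUAUC in 1 member and 0.971%. The motifs were chosen after the sequences were read and are descriptions only. UACUUG and AGUAUC cannot overlap each other, and the last base of AGGUU can be the first of UACUUG. Median precursor lengths were 79 bases for the members and 90 for the others, and median GC contents were 43.6% and 50.9%.

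Strand mattered for 5 members. Mir299a, Mir380, Mir376a, Mir539 and Mir409 lie opposite a miRNA gene annotated on the minus strand and held 8.69% ± 0.816 of the reads of the cluster. Counted without strand, Mir299a fell from 22743 to 9 reads in replicate 1 and from 21942 to 5 in replicate 2, and the other 4 had 0. Their opposite genes Gm25750, Gm25252, Gm44322 and Gm24321 had 0 sense reads in both libraries. Mir299b, opposite Mir299a, had 12 and 3. The Mir299a and Mir299b precursors share 21 bases, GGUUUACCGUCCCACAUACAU, so reads within this run match both precursors.

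For each of the 395 miRNA genes with at least 10 reads, the split of its reads between the 2 libraries was set against the split of all sense reads by a two-sided exact binomial test, with Benjamini-Hochberg adjustment over all 395. A test of this kind compares the libraries, without replicates behind it. With a limit of 2-fold and of 0.05 on the adjusted p, 0 of 36 tested members were called, beside 7.09% of all tested genes (3.29% higher and 3.8% lower in replicate 2). At an unadjusted p under 0.05, 0 of the 36 members had a 2-fold difference, and 0 were called with edgeR's TMM factors or DESeq2's size factors. Of the 36 members, 2 differed by at least 1.5-fold, Mir667 and Mir758. The shares of all tested genes under these alternatives are not given here.

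Small differences were frequent and mostly in 1 direction. Without a fold limit 27 of 36 members were called (75.0%), beside 41.3% of all tested genes, 23 lower in replicate 2 (all genes 24.3%) and 4 higher (all genes 17%). Counting tests call more genes where reads are many. Among genes with at least 1000 reads in both libraries together, 26 of 32 members (81.2%) and 114 of 165 genes (69.1%) were called, and 22 members (68.8%) and 71 genes (43.0%) were lower in replicate 2. The median log2 ratio of replicate 2 over replicate 1 was -0.17 over the members, -0.15 over 16 tested upstream genes and -0.03 over all genes. With DESeq2's size factors the calls were 19 lower and 6 higher among the members, and 78 lower and 89 higher over all genes in place of 96 and 67. The common biological coefficient of variation, as edgeR names it, was 0.188 over 320 genes. It was estimated from the 2 libraries alone and does not separate differences between animals from technical ones.

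Mir667 showed the widest difference among members with more than 100 reads. It had 545.4 CPM in replicate 1 and 334.7 CPM in replicate 2, 1.63-fold higher in replicate 1 (exact 95% interval 1.52 to 1.75, exact binomial test, adjusted p = 4.38e-42). Upstream of it, Mir543 and Mir495 were also higher in replicate 1, with log2 ratios of -0.58 and -0.38. Mir376c, the next gene downstream, went the other way. The 4 members called higher in replicate 2 were Mir411, Mir329, Mir376c and Mir300, with log2 ratios of 0.05, 0.15, 0.21 and 0.18. Mir758 had a log2 ratio of -0.80 on 41 reads in all, and its interval of 0.902- to 3.52-fold, replicate 1 over replicate 2, included no difference.

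**Figure D4:**
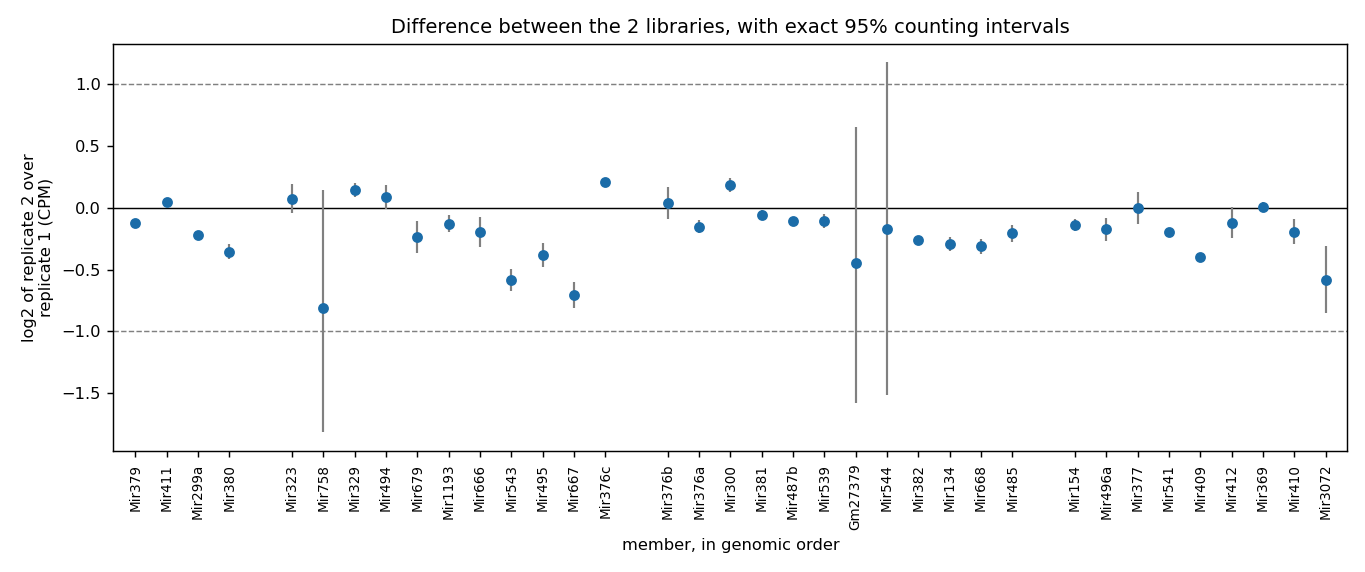
Log2 of replicate 2 over replicate 1 in CPM for the 36 tested members in genomic order, with exact 95% intervals that cover counting error only and dashed lines at 2-fold. Of the members, 28 lie below 0 and 8 above, beside 213 of all 395 tested genes below 0. No member is called at 2-fold, and the intervals are widest for Mir758, Gm27379 and Mir544.

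The remaining members held intermediate levels. Mir323 had 310.2 and 326.4 CPM, Mir666 had 321.6 and 281.3 CPM, and Mir679 had 289.4 and 246.1 CPM, so that Mir666 overlapped with the other two. Mir667 stood at 440.1 ± 149 CPM. Mir539 (1310 ± 67.8 CPM), Mir380 (1224 ± 211 CPM) and Mir154 (1729 ± 117 CPM) lay above 1000 CPM, a level that 18 of the 39 members reached on average.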

How the data were processed

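The authors deposited raw read counts per miRNA gene, with unstranded, sense and antisense columns for each library and 4 summary rows, which stayed out of totals and tests. Build mm10 and annotation GENCODE M21 are named in the descriptions deposited beside the counts. The aligner is not given in the sources used here, nor are trimming or read filters. The strand of the columns was read from their layout and totals. Sense counts were scaled to 1000000 sense reads on miRNA genes. All 2202 identifiers matched GENCODE M21, which gave coordinates, Mirg and precursor sequences; mature arms come from RefSeq, matched by symbol, and 36 RefSeq hairpins were identical to the GENCODE precursor. Precursors were aligned globally with Biopython 1.88 (match 1, mismatch -1, gap opening -2, extension -0.5). Tests used SciPy 1.17.1, and scaling alternatives edgeR 4.0.16 and DESeq2 1.42.0 in R 4.3.3. Log2 ratios have 0.5 added to each count. The binomial test was tried on simulated counts in which unchanged genes varied by counting error only. That trial cannot show how the test behaves under a wider spread between libraries. Reads carry no molecular identifiers, so intervals cover counting error only. Members, lists and named genes (the 10 highest, related hairpins, shared seeds, both ends, members under 2 CPM) were chosen with earlier results of these data known. Alternatives were unstranded counts, other denominators, thresholds and scalings, genes with shared windows left out, and each library left out.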

Additional observations from a re-analysis of the deposited data

Results flagged for a closer look

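Antisense counts, which no comparison used, held 12 reads on Mir299a in replicate 1, above the limit of 3 that a count of 0 allows, and 3 reads in replicate 2. The other 38 members had no antisense read in either library. The counts equal the sense counts of Mir299b, annotated on the minus strand of the same locus. What produced these reads was not tested.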

How the results depend on the processing

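The share of the cluster, 15.8% of sense reads, became 17.3% with unstranded counts, 12.6% without genes that share an 18-base window (11.7% with overlapping precursors included, an alternative chosen after seeing the data) and 6.49% of all reads in the file, where unaligned reads and reads aligned to several places enter the denominator. The first 5 members held 84.0% of the cluster with unstranded counts and 71.6% without genes that share a window (73.2% with overlapping precursors included), which leaves out Mir411 and Mir487b. Detected members numbered 31 with unstranded counts, which drop the 5 members opposite another miRNA gene, and 33 at 10 CPM. With no fold limit 27 of 36 tested members were called between the libraries, beside 41.3% of all tested genes. At 1.5-fold 1 member was called, Mir667, and the share of all genes at that limit is not given here. The median log2 ratio of the members was -0.12 with DESeq2's size factors, under which 19 members were lower and 6 higher in replicate 2 without a fold limit, and over all genes 78 were lower and 89 higher, in place of 96 and 67. The cause of this shift was not tested. Leaving out either library gave shares of 15.5% and 16.2%, with 36 members detected each time. The comparison of libraries needs both. No paired analysis was possible because all samples belong to 1 group. Of 20 named levels, 15 moved by more than 1 SD with unstranded counts and none with TMM factors. Members without an opposite miRNA gene had the same unstranded and sense counts. Their CPM changed only because the unstranded totals were smaller, 2968261 and 3263009 reads in replicates 1 and 2 beside 3510897 and 3949733. Depth limits Mir758, Gm27379, Mir544 and the members at 0.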
